A study of Mus musculus with 10 samples.

Results

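De novo lipogenesis and triglyceride synthesis were followed through 10 genes (Acly, Acaca, Fasn, Scd1, Scd2, Elovl6, Mlxipl, Thrsp, Dgat1 and Dgat2), chosen by name from the 56748 genes of the count table. All 10 were found as 1 row each, and all 10 were among the 14270 genes with enough counts to be tested. RNA-seq covered primary differentiated adipocytes in 5 control and 5 Ad-Fam20c–KO libraries. Both groups carried the floxed Fam20c allele. Control mice were Fam20c-flox without Cre, and KO mice were Fam20c-flox/Adipoq-Cre, so that the Cre transgene was present in KO only. The Adipoq promoter drives Cre in adipocytes, and other cells of the cultures keep the intact allele. The cells were the stromal vascular fraction of inguinal fat from male mice 6 to 8 weeks old, on a C57BL/6J backcross, differentiated for 6 to 8 days. Insulin, dexamethasone, isobutylmethylxanthine and rosiglitazone were part of the differentiation of all cultures. The sources used here do not say whether each library came from its own mouse or its own culture, and n counts libraries throughout. P values therefore measure the spread between these libraries, which may be technical.

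In lipogenesis, cytosolic citrate is split to acetyl-CoA, carboxylated to malonyl-CoA and condensed to palmitate, which is then elongated and desaturated. The fatty acids are esterified to glycerol, and the final acylation from diacylglycerol makes triglyceride, the store of the adipocyte. Insulin through SREBP-1c and glucose through ChREBP induce many of these genes.

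None of the 10 genes passed the limit between KO and control cultures, an adjusted p of 0.05 (quasi-likelihood test of edgeR, Benjamini-Hochberg over all genes tested). The same test called 2.17% of the 14270 genes, 1.86% lower and 0.308% higher in KO. At an unadjusted p under 0.05 there were 2 of the 10 genes, Thrsp and Elovl6, and 11.9% of all genes. The log2 estimates lay above 0 for 5 genes (49.7% of all genes) and below 0 for the other 5, and 2 were larger than 0.2 in either direction (18.3% of all genes). The median log2 fold change was -0.00045 for the 10 genes and -0.00085 for all genes tested. Regardless of sign, the median size was 0.090 for the 10 genes and 0.072 for all genes tested. It was 0.048 for the 5529 genes with at least the mean level of Elovl6. No gene of the 10 had KO libraries that lay wholly outside the control libraries, an arrangement seen for 3.97% of all genes (2.66% lower and 1.31% higher). No estimate was larger than 15.4% of the control level (Thrsp), and on the log2 scale that of Elovl6 was the largest in size (-0.22, against 0.21 for Thrsp).

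**Figure D1:**
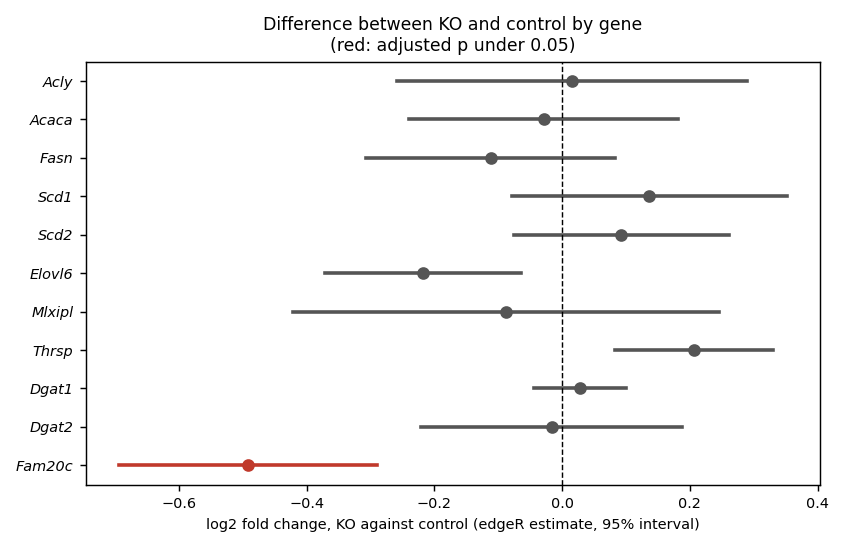
Log2 fold change of KO against control (x axis) for the 10 genes and for Fam20c (y axis), as edgeR's estimate with its 95% interval; red marks an adjusted p under 0.05. Of the 10 lipogenic genes, the intervals of Thrsp and Elovl6 lie to either side of 0, the other 8 include 0, and Fam20c is the only gene shown in red.

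Total counts ranged from 18949106 to 26237825 per library. Fam20c (ENSMUSG00000025854.16), the deleted gene, was measured at 8.86, 10.3, 11.9, 9.09 and 11.2 in Control 1 to 5 and at 6.65, 7.29, 7.11, 7.70 and 7.74 in KO 1 to 5, in CPM, which divides each count by the TMM-adjusted size of its library. The groups did not overlap, KO being lower, at a log2 fold change of -0.49 (SE 0.093, adjusted p = 0.0137, edgeR), and Fam20c transcripts remained in the KO cultures. Without Control 5 and KO 4, a pair of libraries described with Mlxipl, the value was -0.48 (adjusted p = 0.0982, edgeR), and none of the 10 lipogenic genes was called. None of the 15 adipocyte markers was called or was without counts, and their mean level was 9.78 to 9.87 log2 CPM in control and 9.83 to 9.91 log2 CPM in KO libraries. Markers of other cells moved with genotype: 11 of 14 endothelial markers and 5 of 12 progenitor and fibroblast markers were lower in KO, and none was higher. Mean endothelial level was 3.34 to 3.64 log2 CPM in control and 2.28 to 2.76 log2 CPM in KO, and mean progenitor level was 5.94 to 6.20 and 5.51 to 5.75 log2 CPM. No macrophage marker (12 tested) or mural marker (7 of 8 tested) was called, and of 8 thermogenic markers only Ucp1 was called, higher in KO. The estimates of 6 of these 8 were positive and those of 2 negative. Mean thermogenic level was 5.032 to 5.353 log2 CPM in control and 5.355 to 5.481 log2 CPM in KO. With mean endothelial level as a covariate, in which the groups do not overlap, edgeR's test called 0 lower and 0 higher of all genes. Fam20c lost its call there (adjusted p = 0.441, edgeR). That fit therefore cannot decide the calls of the 10 genes, of which none was called. Their log2 values nearest the limit were 0.77 for Thrsp (adjusted p = 0.0618, edgeR) and -0.94 for Dgat2 (adjusted p = 0.0945, edgeR). The part of the other marker groups was not tested. In such bulk cultures, fewer cells of a type and less RNA per cell cannot be told apart.

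Scd1 encodes the main stearoyl-CoA desaturase of adipose tissue, which makes oleate from stearate, and Scd2 is its neighbor and paralog. Scd1 (ENSMUSG00000037071.4) lies on the minus strand of chromosome 19 from 44394455 to 44407879 of GRCm38, and Scd2 (ENSMUSG00000025203.7) on the plus strand from 44293674 to 44306864. Scd1 had the most counts of all 56748 genes in each of the 10 libraries, and took 4.21% to 5.78% of a library. It had 47176, 44740, 41424, 59447 and 46890 in Control 1 to 5 and 57727, 56197, 45488, 51086 and 52889 in KO 1 to 5 (CPM). The highest library was a control and the ranges overlapped. Together the 10 genes took 5.51% ± 0.64 of counts in control and 5.92% ± 0.438 in KO libraries (SD, n = 5), with overlapping ranges. Most of this sum was Scd1. Without Scd1 the share was 0.693% ± 0.055 in control and 0.698% ± 0.037 in KO libraries (SD, n = 5). The log2 fold change of Scd1 was 0.14 (SE 0.099, adjusted p = 0.681, edgeR), with a 95% interval from 0.947-fold to 1.28-fold. Scd2 averaged 3564 ± 418 in control and 3801 ± 250 in KO cultures (CPM ± SD, n = 5), which is a log2 fold change of 0.09 with a 95% interval that includes 0. Per kilobase of exon, the Scd1 level was between 14.6 and 15.7 times that of Scd2 in control libraries and between 14.8 and 16.1 times in KO libraries (2-sided exact permutation test, p = 0.143). This ratio varied less between libraries than either gene's level did. Few stretches of read length are shared by the pair: 4.56% of the 50-base stretches of Scd1 transcripts and 3.97% of those of Scd2 also occur in another annotated gene, mostly other Scd genes.

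**Figure D2:**
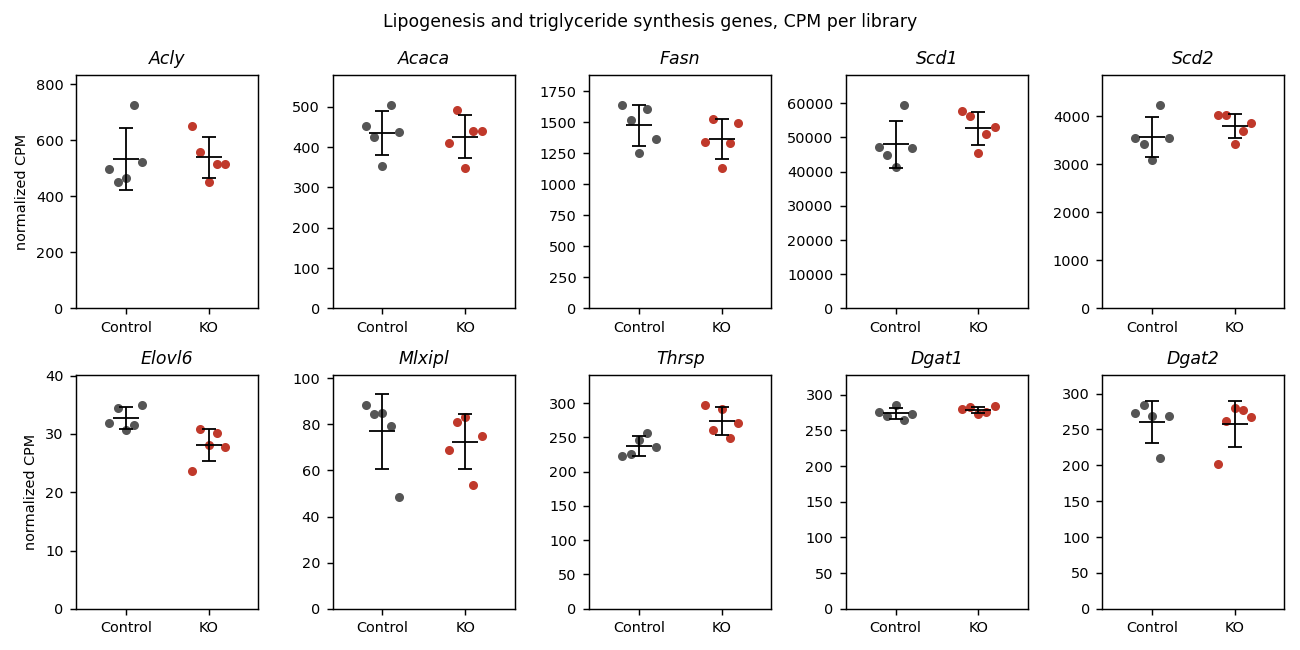
Normalized CPM (y axes, each starting at 0) of the 10 genes in the 5 control (gray) and 5 KO (red) libraries, with the mean and SD of each group in black. The groups overlap in every panel, and Thrsp and Elovl6 overlap least.

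Levels of different genes were compared as FPKM (CPM divided by the exon length in kilobases), computed from the counts with the exon lengths of GENCODE M21. In control cultures the order was Scd1 at 9799 ± 1397, Scd2 at 652 ± 76.5, Fasn at 135 ± 15.0, Thrsp at 108 ± 6.47, Acly at 101 ± 21.2, Dgat1 at 89.6 ± 2.42, Dgat2 at 84.6 ± 9.41, Acaca at 25.5 ± 3.18, Mlxipl at 13.9 ± 2.95 and Elovl6 at 5.09 ± 0.293 FPKM (SD, n = 5). Scd1 and Scd2 were above the rest and Acaca, Mlxipl and Elovl6 below the rest in each of the 10 libraries. From Fasn to Dgat2, each gene's control libraries overlapped those of the next gene in the order. In KO cultures Thrsp, at 125.1 ± 9.22 FPKM, stood level with Fasn at 124.7 ± 14.4 FPKM (SD, n = 5). The transcripts differ in length between isoforms, and with the longest transcript in place of all exons the ranks of Fasn, Thrsp, Acly and Dgat1 moved by 1 place each.

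**Figure D3:**
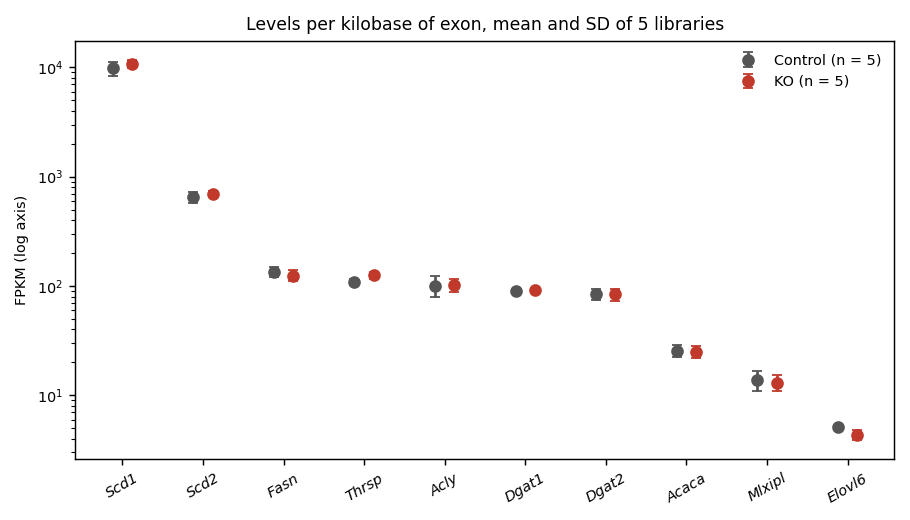
FPKM on a log axis (y) for the 10 genes in order of their control mean (x), with the mean and SD of 5 control (gray) and 5 KO (red) libraries. Scd1 stands at 9799 FPKM in control, 5 genes lie close together from 84.6 to 134.8 FPKM in control, and Elovl6 is lowest at 5.09 FPKM.

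Acly and Acaca supply the building blocks of fatty acids. ATP citrate lyase, encoded by Acly (ENSMUSG00000020917.18, chromosome 11, 100476353 to 100528000, minus strand), releases acetyl-CoA from citrate. Acly was measured at 499, 450, 466, 726 and 525 in Control 1 to 5 and at 651, 560, 453, 515 and 516 in KO 1 to 5 (CPM). Control 4 and KO 1 were the highest of their groups, and the groups overlapped. For Acly the log2 fold change was 0.02 (SE 0.126), with an interval from 0.836-fold to 1.22-fold. Acaca (ENSMUSG00000020532.19, chromosome 11, 84129672 to 84401651, plus strand) encodes acetyl-CoA carboxylase 1, which makes malonyl-CoA, the committed step. Acaca ranged from 354 to 504 CPM in control and from 348 to 493 CPM in KO cultures, at a log2 fold change of -0.03 and an interval from 0.847-fold to 1.13-fold. Of the 50-base stretches of Acaca transcripts, 30.4% also occur elsewhere, mostly in Gm5182. On Gm5182, 35 to 64 fragments per library were counted against at least 7522 on Acaca. The sources used here do not give how fragments matching both genes were counted, so these counts do not show how many Acaca fragments were lost.

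Fasn (ENSMUSG00000025153.10, chromosome 11, 120805846 to 120824547, minus strand) encodes the fatty acid synthase that condenses malonyl-CoA to palmitate. Its level was 1638, 1519, 1249, 1603 and 1366 in Control 1 to 5 and 1342, 1525, 1129, 1335 and 1494 in KO 1 to 5 (CPM). Library 3 was lowest in both groups and the ranges overlapped. Fasn had a log2 fold change of -0.11 (SE 0.09, adjusted p = 0.72, edgeR), with an interval from 0.808-fold to 1.06-fold.

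Thrsp and Elovl6 came nearest to the limit, in opposite directions. Thrsp (ENSMUSG00000035686.9, chromosome 7, 97412938 to 97417730, minus strand) encodes Spot 14, a small protein induced by thyroid hormone and carbohydrate that promotes lipogenesis. Thrsp was measured at 223, 226, 246, 257 and 235 in Control 1 to 5 and at 297, 261, 291, 249 and 271 in KO 1 to 5 (CPM). All KO libraries but KO 4 exceeded the highest control library, Control 4. The log2 fold change of Thrsp was 0.21 (SE 0.057, unadjusted p = 0.0032, adjusted p = 0.101, edgeR), an interval from 1.06-fold to 1.26-fold. By DESeq2's Wald test (adjusted p = 0.0298) and limma voom with quality weights (adjusted p = 0.0343) Thrsp passed. Without Control 4 it passed in edgeR's test (adjusted p = 0.0433). Over the 21 alternatives the adjusted p of Thrsp ranged from 0.0298 to 0.237. Elovl6 (ENSMUSG00000041220.11, chromosome 3, 129532355 to 129638495, plus strand) encodes the elongase that takes palmitate to stearate, the substrate of Scd1. It was measured at 31.8, 34.5, 30.7, 31.6 and 34.9 in Control 1 to 5 and at 23.7, 30.9, 28.1, 30.2 and 27.7 in KO 1 to 5 (CPM). Only KO 2, by a small margin over Control 3, reached into the control range. The log2 fold change of Elovl6 was -0.22 (SE 0.071, unadjusted p = 0.009, adjusted p = 0.183, edgeR), an interval from 0.773-fold to 0.956-fold, and its adjusted p was 0.116 to 0.387 over the 21 alternatives. Elovl6 rests on the fewest fragments of the 10 genes, at least 478 per library.

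Each gene was also set against the mean of the 15 adipocyte markers in the same library. On that log2 scale the difference between KO and control was 0.18 for Thrsp (2-sided exact permutation test, unadjusted p = 0.0159) and -0.24 for Elovl6 (2-sided exact permutation test, unadjusted p = 0.0238), among 10 genes so compared, where the smallest p possible is 0.00794. For the other 8 genes the exact permutation p-values of this difference lay between 0.262 and 0.992.

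The promoter sequences of Thrsp and Elovl6 are given because these genes came nearest to the limit, and those of Mlxipl because its transcripts have a pair of alternative starts that the gene-level counts do not separate. The sequences are RefSeq's for GRCm38.p6, cut to the 250 bases before the annotated start and written 5′ to 3′ along the gene (Thrsp chr7:97417551-97417800, minus strand; Elovl6 chr3:129532136-129532385, plus strand; Mlxipl chr5:135089640-135089889 for the upstream and chr5:135106641-135106890 for the downstream start, plus strand), with matches to any of 4 motifs in capitals. RefSeq windows were found for 6 of the 10 genes, in all 7 windows, and not for Scd1, Scd2, Dgat1 and Dgat2. The starts differ between annotations. By GENCODE M21 the Thrsp gene starts at 97417730 (minus strand) and the Elovl6 gene at 129532355, each inside its window. Part of both windows, with both marked stretches of Thrsp, therefore lies within the gene by GENCODE M21.
Thrsp: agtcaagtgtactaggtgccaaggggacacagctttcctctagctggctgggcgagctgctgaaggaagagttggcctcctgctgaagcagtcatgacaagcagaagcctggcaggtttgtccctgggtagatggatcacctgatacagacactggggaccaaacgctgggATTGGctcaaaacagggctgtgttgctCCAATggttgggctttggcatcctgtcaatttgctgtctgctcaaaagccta
Elovl6: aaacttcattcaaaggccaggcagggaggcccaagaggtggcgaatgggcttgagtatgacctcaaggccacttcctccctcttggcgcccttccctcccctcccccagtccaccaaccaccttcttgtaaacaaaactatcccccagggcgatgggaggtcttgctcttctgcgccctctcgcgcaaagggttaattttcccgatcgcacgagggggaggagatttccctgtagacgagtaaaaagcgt
Mlxipl upstream start: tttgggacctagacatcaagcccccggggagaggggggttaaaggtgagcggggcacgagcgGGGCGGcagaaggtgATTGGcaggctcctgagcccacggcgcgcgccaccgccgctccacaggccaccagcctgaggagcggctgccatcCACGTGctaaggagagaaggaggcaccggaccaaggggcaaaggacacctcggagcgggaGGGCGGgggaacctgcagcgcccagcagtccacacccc
Mlxipl downstream start: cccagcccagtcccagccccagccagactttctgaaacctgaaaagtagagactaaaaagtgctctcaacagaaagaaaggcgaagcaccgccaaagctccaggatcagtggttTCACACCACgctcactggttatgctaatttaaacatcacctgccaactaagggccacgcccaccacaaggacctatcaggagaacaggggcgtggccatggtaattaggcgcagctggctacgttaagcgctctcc
The motifs were searched on both strands. The Thrsp window holds 2 CCAAT boxes (CCAAT, bound by NF-Y) and the Elovl6 window holds no match to any of the 4. The upstream window of Mlxipl holds the only E-box (CACGTG, the core of the elements that ChREBP and USF bind) among the 7 windows, with 1 CCAAT box and 2 GC boxes (GGGCGG, bound by Sp1). The downstream window holds the only match to the sterol regulatory element (TCACNCCAC, bound by SREBPs). Across all 32851 RefSeq windows of this length, 33.8% hold a CCAAT box, 32.7% a GC box, 6.02% the E-box and 1.05% the sterol element. A match describes these letters and is not a measured binding site.

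Mlxipl (ENSMUSG00000005373.14, chromosome 5, 135089890 to 135138382, plus strand) encodes ChREBP, the factor that induces lipogenic genes in response to glucose. Its level was 88.3, 84.3, 84.9, 79.3 and 48.4 in Control 1 to 5 and 69.1, 81.1, 83.2, 53.6 and 75.2 in KO 1 to 5 (CPM). One library of each group, Control 5 and KO 4, stood well below the rest. The estimate for Mlxipl was a log2 fold change of -0.09 (SE 0.154, adjusted p = 0.909, edgeR), with an interval from 0.747-fold to 1.19-fold, the widest of the 10. The same pair of libraries was low in mitochondrial transcripts, which took 2.09% and 1.92% of their counts against 3.84% to 5.09% in the others. They were also low in the nuclear RNA Neat1, chosen after its values were seen, at 122.7 and 130.9 CPM against 332.3 to 592.9 CPM. The part of either in the Mlxipl values was not tested. Without Control 5 and KO 4, the log2 fold change of Mlxipl was -0.12 (SE 0.066, adjusted p = 0.632, edgeR). Its SD between libraries of a group fell from 0.313 to 0.096 log2 CPM. That fall follows from the choice of libraries, made after seeing the data, since both are the lowest of their group for Mlxipl. For the other 9 genes the range of SDs was 0.03 to 0.24 log2 CPM with these libraries and 0.04 to 0.27 without them.

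Dgat1 and Dgat2 catalyze the same last step, the acylation of diacylglycerol, but belong to unrelated protein families. Dgat1 (ENSMUSG00000022555.13, chromosome 15, 76502015 to 76511953, minus strand) was measured at 275, 270, 285, 265 and 273 in Control 1 to 5 and at 279, 283, 274, 276 and 284 in KO 1 to 5 (CPM). Its libraries lay closer together than those of the other 9 genes. Dgat1 had a log2 fold change of 0.03 (SE 0.033), and its interval, from 0.970-fold to 1.07-fold, was the narrowest of the 10. Dgat2 (ENSMUSG00000030747.6, chromosome 7, 99153658 to 99182719, minus strand) was measured at 273, 284, 268, 210 and 268 in Control 1 to 5 and at 202, 262, 280, 277 and 267 in KO 1 to 5 (CPM). Control 4 and KO 1 stood below all other libraries. For Dgat2 the log2 fold change was -0.02 (SE 0.095), with an interval from 0.858-fold to 1.14-fold. Per kilobase of exon, the level of Dgat1 was 1.27 times that of Dgat2 in Control 4 and 1.39 times in KO 1, and 0.962 to 1.09 times in the other 8 libraries, with no difference past the spread between the groups (2-sided exact permutation test, p = 0.619).

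The 10 genes varied more between libraries of a group than most genes of like level. The SD of log2 CPM within groups had a median of 0.168 for the 10 genes and of 0.084 for the 5529 genes with at least the mean CPM of Elovl6, and 9 of the 10 genes lay above the latter median. Mlxipl lay at percentile 97.9 of these 5529 genes and Acly at percentile 95.1, while Dgat1, the exception, lay at percentile 1.43. Control 4 and KO 1 carried much of this spread for some genes. In both, Acly, Scd1 and Scd2 were highest or next to highest and Dgat2 lowest of the group, while Dgat1 lay 0.05 below its group mean in Control 4 and at it in KO 1 on the log2 scale. The same libraries lay apart on the leading principal component of all genes, which held 23.5% of the variance, at 21.7 and 24.2 against -14.8 to 8.59 in the others. Without the pair, the SD within groups fell from 0.183 to 0.042 log2 CPM for Dgat2 and from 0.237 to 0.113 log2 CPM for Acly. That fall follows from the choice of libraries, since both are extremes of their groups for Dgat2 and Acly. The SD was then 0.187 for Acaca and 0.185 for Fasn, and none of the 10 genes was called. The mean adipocyte marker level of Control 4 was 0.01 and that of KO 1 was 0.05 above the mean of its group on the log2 scale.

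**Figure D4:**
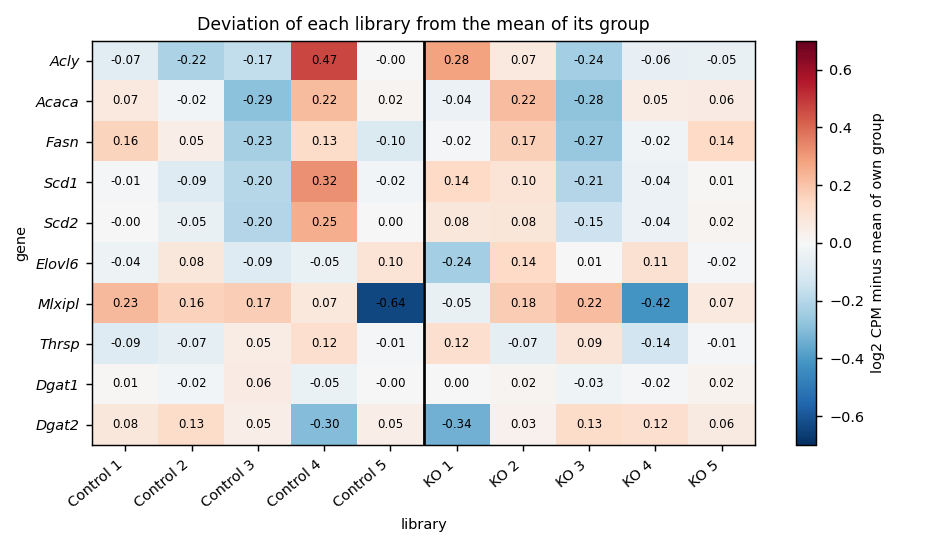
Log2 CPM of each of the 10 genes (rows) in each library (columns) minus the mean of its own group, with red above and blue below that mean. Acly is highest and Dgat2 lowest in Control 4 and KO 1, Acaca and Fasn are lowest in Control 3 and KO 3, and Mlxipl is lowest in Control 5 and KO 4.

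Around the 10 genes, 76 further genes of the pathway were listed in 4 groups, and 72 were tested. Of these, 1 was lower and 0 were higher at the adjusted limit, against 1.86% lower and 0.308% higher among all genes, and 10 (13.9%) had an unadjusted p under 0.05, against 11.9% of all genes. The groups did not overlap for 3 of the 72 genes (Me1, Mbtps2 and Trib1, the last named after its values were seen), against 3.97% of all genes. The gene called was Me1, the cytosolic malic enzyme that makes NADPH for fatty acid synthesis. Me1 was measured at 574, 554, 593, 678 and 624 in Control 1 to 5 and at 540, 494, 455, 532 and 487 in KO 1 to 5 (CPM), without overlap. Its log2 fold change was -0.27 (SE 0.062, adjusted p = 0.042, edgeR). The call is near the limit: Me1 passed in 10 of 21 alternatives, with adjusted p-values from 0.00388 to 0.937. Its log2 fold change was -0.30 to -0.22 in all of them but the fit with the endothelial covariate, where the direction turned (0.051, adjusted p = 0.937, edgeR). The call was lost, among others, with the replicate number as a block (adjusted p = 0.0599) and on leaving out any 1 library other than Control 2 or KO 1 (adjusted p from 0.0515 to 0.122 in edgeR's test). Of the 50-base stretches of Me1 transcripts, 28.3% also occur elsewhere, mostly in the pseudogene Gm7049, which had 2.73 ± 0.295 in control and 14.3 ± 1.30 in KO cultures (CPM ± SD, n = 5). The sum of Me1 and Gm7049 was 607.4 ± 48.4 in control and 516.1 ± 35.9 in KO cultures (CPM ± SD, n = 5). The groups did not overlap in this sum either (2-sided exact permutation test, p = 0.00794, the smallest possible). Gm48795, which shares 659 of the Me1 stretches, was not included. How fragments matching several genes were counted is not given in the sources used here. The part of shared sequence in the Me1 values was therefore not tested by this sum.

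Of the 13 genes that supply carbon and NADPH, none but Me1 was called. G6pdx, which opens the pentose phosphate pathway, had 473.6 ± 11.5 and 496.1 ± 17.3 CPM, and Aacs, a cytosolic acetoacetyl-CoA synthetase, 214.7 ± 31.5 and 241.3 ± 29.4 CPM in control and KO cultures (SD, n = 5). None of the 19 tested desaturases, elongases and acyl-CoA synthetases was called. The lowest unadjusted p-value among them was that of Scd3, another desaturase next to Scd1, at 39.5 ± 6.04 in control and 47.9 ± 2.58 in KO cultures (CPM ± SD, n = 5), which is a log2 fold change of 0.28 (adjusted p = 0.171, edgeR). Hacd2, a dehydratase of the elongation cycle, had 209.7 ± 13.3 and 228.3 ± 7.31 CPM, and Fads1, the delta-5 desaturase of polyunsaturated fatty acids, 204.8 ± 6.22 and 194.5 ± 3.36 CPM (SD, n = 5).

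None of the 19 tested genes of glycerol 3-phosphate and glycerolipid synthesis was called. Lpin3, a phosphatidate phosphatase, came nearest, at 22.7 ± 2.11 in control and 18.4 ± 1.73 in KO cultures (CPM ± SD, n = 5), which is a log2 fold change of -0.30 (adjusted p = 0.0814, edgeR). Its abundant paralog Lpin1 had 784.4 ± 95.9 and 880.2 ± 52.7 CPM, a log2 fold change of 0.17, and the acyltransferase Agpat5 30.3 ± 2.36 and 32.6 ± 1.85 CPM (SD, n = 5). None of the 21 regulators was called. Txnip, a glucose-responsive target of ChREBP, had 909.0 ± 89.1 in control and 1073.6 ± 97.2 in KO cultures (CPM ± SD, n = 5), which is a log2 fold change of 0.24 (adjusted p = 0.163, edgeR). Mbtps2, a protease that activates SREBPs, had 20.0 ± 0.83 and 22.2 ± 0.697 CPM without overlap of the groups, and Pparg, the master regulator of adipocytes, 225.0 ± 7.29 and 241.6 ± 4.62 CPM (SD, n = 5), neither past the limit (adjusted p = 0.196 and 0.218, edgeR).

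**Figure D5:**
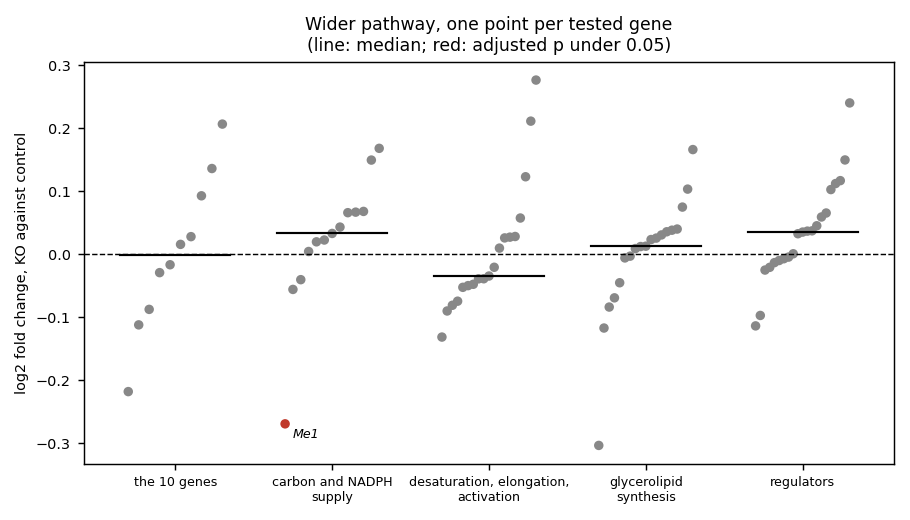
Log2 fold change of KO against control (y axis) for each tested gene of the 10 genes and of the 4 wider groups (x axis), with the median of each group as a black line and genes past the adjusted limit in red. Me1 is the only red point, and the medians lie between -0.03 and 0.04.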

How the data were processed

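RNA-seq libraries of adipocyte cultures, 5 control and 5 KO, were prepared with SMARTer v4 and Nextera XT kits and read as paired 50-base ends. The authors aligned reads to GRCm38.p6 with STAR and counted them per Ensembl gene with featureCounts; the deposited values are raw counts, and the strand setting is not given in the sources used here. Groups came from the sample labels. Genes with enough counts (filterByExpr, minimum count 10) were TMM-scaled, and KO was compared with control in edgeR 4.0.16 (quasi-likelihood, Benjamini-Hochberg over 14270 genes, limit 0.05). Log2 CPM values used a prior count of 2. Alternatives were DESeq2's Wald test (1.42.0), the study's method in a later version, and limma voom with quality weights (3.58.1, limma voom for short). For DESeq2 the gene filter above was kept and the package's own filter was off, so its calls are not those of the study. Further alternatives used other size factors, filters, covariates, the replicate number as a block and left-out libraries. Single values were compared by 2-sided exact permutation tests over 252 arrangements. The genes named were the 10 chosen, and of each wider list those called and those with the lowest p. The 10 genes and all lists were chosen with earlier results of these data known. Positions are from GENCODE M21 and promoters from RefSeq. Scripts were tested on simulated data. No pair of libraries of a group was alike within counting error (lowest chi-square per degree of freedom 3.29).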

Additional observations from a re-analysis of the deposited data

Results flagged for a closer look

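Among 22 sets of 5 libraries (the 10 genes and Fam20c in each group), 4 held a library farther from the rest than Dixon's 95% critical value of 0.71 for gap over range. Chance gives about 1.1 on average. The sets share the same libraries, so flags can come together, and whether 4 exceeds chance was not tested. Acly in Control 4 was at 726.4 CPM, against 450.2 to 524.6 CPM in the other control libraries (ratio 0.73). Dgat2 in Control 4 was at 210.0 CPM, against 268.2 to 283.6 CPM (ratio 0.79). Dgat2 in KO 1 was at 202.5 CPM, against 261.6 to 280.3 CPM in the other KO libraries (ratio 0.76). Mlxipl in Control 5 was at 48.4 CPM, against 79.3 to 88.3 CPM (ratio 0.774). The cause of these values was not tested.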

How the results depend on the processing

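Over 21 alternatives, 210 fits of the 10 genes gave 193 values with the same direction and side of the limit, 14 of the other sign and 3 newly past the limit, all of Thrsp (DESeq2 0.21, limma voom 0.22, without Control 4 0.24). The log2 fold change turned for Acaca with limma voom (0.0087) and without Control 4 and KO 1 (0.043), and with the adipocyte marker level as a covariate for Acly (-0.049) and Dgat2 (0.046). Fam20c lost its call with the endothelial marker level as a covariate (-0.63, adjusted p = 0.441 in edgeR's test) and without Control 5 and KO 4 (-0.48, adjusted p = 0.0982), a choice made after seeing the data. Of all genes, 44 were higher in the main test, 125 with DESeq2, 111 with limma voom, 145 without Control 4 and KO 1, and 13 (127 lower, against 265) without Control 5 and KO 4. With the endothelial covariate edgeR's test called 0 lower and 0 higher, though 2224 genes had an unadjusted p under 0.05. Of the 10 genes, those called higher numbered 1 with DESeq2 and 1 with limma voom, and 0 were lower throughout. Of the wider pathway genes, 2 were lower with DESeq2, 2 with the adipocyte covariate and 2 without Control 4 and KO 1, and 0 with the endothelial covariate and without Control 5 and KO 4; 2 were higher with limma voom and 2 without Control 4 and KO 1. The replicate block gave 21 higher genes of all genes and 0 lower pathway genes, and changed no call of the 10 genes or Fam20c. Correlations of same-numbered libraries ran from -0.251 to 0.263, and the own number was highest in 1 of 5. So few correlations cannot decide whether the numbers pair the libraries. Leaving out 1 library at a time gave 164 to 323 lower and 19 to 119 higher genes of all genes, 0 to 1 of the 10 genes higher, and 0 to 2 lower and 0 to 2 higher pathway genes; the log2 fold change ranged from -0.058 to 0.16 for Acly, -0.092 to 0.038 for Acaca, -0.22 to 0.0041 for Mlxipl, -0.082 to 0.061 for Dgat2 and 0.18 to 0.24 for Thrsp. By longest transcript Thrsp ranked 3, Fasn 4, Dgat1 5 and Acly 6 by level.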
